A study of Mus musculus with 11 samples.

Results

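In mouse embryonic stem (mES) cells, 8901 of 29251 H3K4me3 islands on chromosomes 1 to 19 also met an H3K27me3 island, and 1944 of these bivalent islands met neither mark in neonatal or adult cardiomyocytes. The 1944 unmarked bivalent islands made up 21.8% of the bivalent islands (95% Wilson interval 21.0 to 22.7, counting error only). They were chosen from the authors' SICER lists, in which an island is a run of enriched windows of 200 bp. An island counted as met when it shared at least 1 bp. The absence of H3K4me3 and H3K27me3 islands at both stages is therefore the way they were chosen and not a result. The other 6957 bivalent islands, which met at least 1 of these marks at a stage, are called marked bivalent islands below.

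The study profiled H3K4me3, H3K27me3, H3K9me3 and H3K79me2 by chromatin immunoprecipitation and sequencing in mouse cardiomyocytes of 2 ages. CMp cells were cardiomyocytes isolated from animals 1 day old, and CMa cells were cardiomyocytes of the left ventricle from animals 2 months old, so age and heart region cannot be told apart. The labels give no strain, genotype or treatment for either group, and both were purified by enzymatic digestion. There was 1 library per mark and stage, with 3 input libraries among the 11 samples, and the mES maps came from public data that are no samples of the series.

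H3K4me3 sits at gene promoters, and H3K27me3 is laid down by Polycomb repressive complex 2. In embryonic stem cells many promoters of developmental genes carry both, a state called bivalent, and on differentiation such promoters often keep 1 of the marks. H3K79me2, made by Dot1l, follows transcribed gene bodies downstream of the start, while H3K9me3 marks heterochromatin. No annotation of the files' genome build, mm9, was used, so the islands are given by position and marks and not by gene name.

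With 1 library per mark and stage no difference below has a replicate check, and no test across samples was made. Intervals cover counting error over islands, and neighbouring islands are not independent. The regions in the authors' comparison tables held 467818 to 1909655 reads per library, which are sums over listed regions and not library sizes. The length of the lists differed between libraries. On chromosomes 1 to 19 the adult H3K79me2 list held 60348 islands against 17697 in the neonatal list, and the H3K9me3 lists held 14658 adult and 7727 neonatal islands. The part of these list lengths in the shares below was not tested.

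Among the bivalent islands, meeting neither mark at both stages was about as frequent as keeping H3K4me3 alone at both. H3K4me3 without H3K27me3 at both stages was found at 1931 islands, H3K27me3 without H3K4me3 at both stages at 751, and both marks at both stages at 821. Neither mark was found at 2822 bivalent islands (31.7%) in neonatal cells and at 2923 (32.8%) in adult cells. Of those unmarked in neonatal cells, 384 met H3K27me3 alone, 419 H3K4me3 alone and 75 both marks in the adult. Of those unmarked in adult cells, 491 had met H3K27me3 alone, 344 H3K4me3 alone and 144 both marks in the neonate. Among the 20350 stem cell H3K4me3 islands without H3K27me3, 9452 (46.4%, 45.8 to 47.1) were unmarked at both stages, a larger share than among the bivalent islands.

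**Figure D1:**
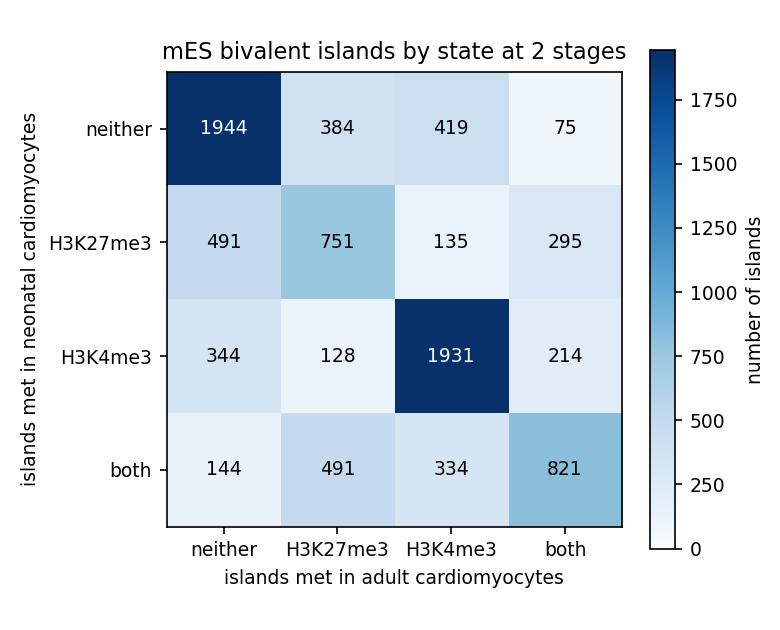
Number of mES bivalent islands by the H3K4me3 and H3K27me3 islands they met in neonatal (rows) and adult (columns) cardiomyocytes, with darker blue for more islands. The islands with neither mark at both stages (1944) and with H3K4me3 alone at both stages (1931) filled the fullest cells.

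The unmarked bivalent islands were narrow and had low scores already in stem cells. Their H3K4me3 islands had a median width of 1400 bp (quartiles 1000 and 2000 bp, range 200 to 11200 bp), against 2200 bp (quartiles 1400 and 3200 bp) at the marked bivalent islands. The median SICER score, the authors' value for each island, whose meaning the sources used here do not state, was 34 (quartiles 23 and 58) against 104 (quartiles 52 and 187). Divided by width, the median score was 26.7 per kb against 47.1 per kb. Only 367 unmarked islands (18.9%) were wider than 2000 bp, against 51.6% of the marked ones, and 40 (2.06%) were wider than 4000 bp, against 12.9%. The unmarked islands without H3K27me3 in stem cells had a similar size, with a median width of 1400 bp and a median score of 29. A wide island has more bases at which to meet another island, so the choice of members itself favours narrow islands.

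The share of bivalent islands that were unmarked was lower in the highest bins of score and of width than in the lowest. In 10 equal bins by score it was 53.9% (50.6 to 57.1) in the lowest bin, at scores of 10 to 23, and 1.01% (0.533 to 1.91) in the highest, at scores of 263 to 1109. It fell at each step but 1, which went from 6.52% in the seventh bin to 6.97% in the next. In 10 equal bins by width it was 51.3% (48.0 to 54.6) in the narrowest bin, at 200 to 1000 bp, and 4.16% (3.03 to 5.68) in the widest, at 4200 to 19000 bp. Only 9 unmarked islands lay in the highest bin by score and 37 in the widest bin.

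**Figure D2:**
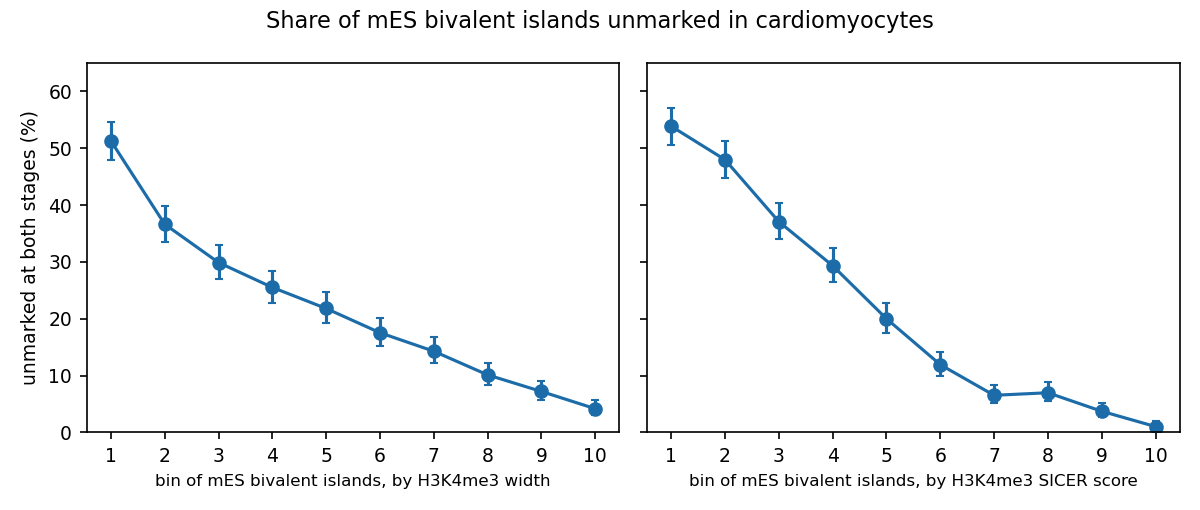
Percent of mES bivalent islands unmarked at both stages in each of 10 equal bins of the 8901 islands, ordered by H3K4me3 island width (left) or SICER score (right), with bin 1 the lowest; bars are 95% Wilson intervals. The share fell from 51.3% to 4.16% by width and from 53.9% to 1.01% by score.

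The stem cell H3K27me3 that made the islands bivalent mostly covered them whole. It covered all bases of 1405 unmarked islands (72.3%) and of 74.3% of the marked ones. The unmarked islands met 1903 stem cell H3K27me3 islands, with a median width of 4200 bp (quartiles 2800 and 6200 bp) and a median score of 49. The 6188 H3K27me3 islands at marked bivalent islands had a median width of 5600 bp (quartiles 3600 and 8800 bp) and a median score of 95. Thus both stem cell marks were narrower and had lower scores where the islands were unmarked later. The lists shared 199 of these H3K27me3 islands, which was 10.5% of those at unmarked and 3.22% of those at marked islands. Only 57 H3K27me3 islands held more than 1 unmarked island, and none of the 1903 held more than 3. Of the 1903, 355 (18.7%) met a stage H3K27me3 island elsewhere along their length. Of those at marked islands 60.7% met a stage H3K27me3 island. That share also counts overlap at the bivalent island itself, which the choice of members bars at unmarked islands, so the shares are not alike.

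MACS, a peak caller that looks for narrow regions, found few of the unmarked islands even in stem cells. A stem cell MACS region of H3K4me3 met 136 of the 1944 (7.00%, 5.94 to 8.22), against 37.2% of the marked bivalent islands. For stem cell H3K27me3 it met 59 (3.03%, 2.36 to 3.90), against 25.8%. A MACS H3K4me3 or H3K27me3 region of a cardiomyocyte library met 16 of the 1944 (0.823%), and 1928 met none. These MACS lists held 955 to 12182 regions each, against 13303 to 23580 SICER islands from the same libraries. The low count is therefore no check of absence. The single MACS lists of these marks in cardiomyocytes met 1.29% to 33.1% of marked bivalent islands.

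The widest member, chr9:99315200-99326399 (mm9), was an H3K4me3 island of 11200 bp with a score of 217. H3K27me3 covered 32.1% of it in stem cells. H3K79me2 covered 9200 bp of it in stem cells, 1800 bp in the neonate and 10400 bp in the adult, so this region kept the mark of transcribed gene bodies while it met no H3K4me3 island. The next widest, chr2:155450600-155459399, spanned 8800 bp with a score of 329 and H3K27me3 over 95.5%. It had no H3K79me2 island in stem cells, whereas H3K79me2 covered all 8800 bp in the neonate and 7600 bp in the adult. Its region in the authors' deposited stage tables, chr2:155448200-155461999, of which it filled 63.8%, still held 69 adult H3K4me3 and 46 adult H3K27me3 reads. Both marks stood at 1 read there in the neonate. Another wide island, chr4:148228400-148237199, likewise spanned 8800 bp, with H3K79me2 over 2400 bp in stem cells, 8800 bp in the neonate and 8600 bp in the adult. Of the 8 widest members, 7 met an adult H3K79me2 island, at 800 to 10400 bp of their length. The exception was chr8:98067800-98074599 (6800 bp), which had H3K79me2 over 3800 bp in stem cells alone and adult H3K9me3 over 200 bp.

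The member with the highest score, chr17:6255200-6259999, had a score of 736 over 4800 bp and full H3K27me3 cover in stem cells. It met no H3K79me2 island in any of the 3 cell types, and its only cover by H3K9me3 islands was 800 bp in stem cells. Reads were still listed in its region of the authors' deposited stage tables, chr17:6255200-6260286, of which it filled 94.4%. H3K79me2 had 1 neonatal and 15 adult reads there, and H3K9me3 had 3 and 11. The second, chr7:4981000-4984799, had a score of 463 over 3800 bp. It carried H3K79me2 over 2800 bp in stem cells, 1200 bp in the neonate and 3000 bp in the adult, and neonatal H3K9me3 over 2200 bp. Of the 6 members with the highest scores, 5 met an adult H3K79me2 island and 1 did not. Members of great width or high score were thus unlike in H3K79me2 islands, from full cover to no island.

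H3K79me2, which the choice of members did not use, was uncommon at the unmarked islands in stem cells and neonatal cells and more frequent in adult cells. It was met by 135 islands in stem cells (6.94%, 5.90 to 8.16), by 150 in neonatal cells (7.72%, 6.61 to 8.99) and by 543 in adult cells (27.9%, 26.0 to 30.0). Over all stem cell H3K4me3 islands the shares were 45.0%, 31.0% and 47.9%. Marked bivalent islands met H3K79me2 at 21.1% in stem cells, 19.7% in neonatal and 37.0% in adult cells. The unmarked islands were below them in each of the 3, with differences (unmarked minus marked) of -14.2, -12.01 and -9.11 percentage points.

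The marked bivalent islands fell apart by which mark they kept. Those with H3K4me3 only met H3K79me2 at 42.7% in neonatal and 61.7% in adult cells, and those with H3K27me3 at a stage at 5.18% and 21.4%. The unmarked islands, at 7.72% and 27.9%, stood above the islands that kept H3K27me3 and far below those that kept H3K4me3 alone. In stem cells the unmarked islands were the lowest, at 6.94%, against 12.5% with H3K27me3 at a stage and 34.8% with H3K4me3 only. The median scores of these classes were 34, 88 and 137.5, and score was not held equal here. Unmarked islands without H3K27me3 in stem cells met H3K79me2 at 36.5% in stem cells, 18.6% in neonatal and 37.0% in adult cells, so the bivalent unmarked islands were the lower of the 2 unmarked classes in each library.

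**Figure D3:**
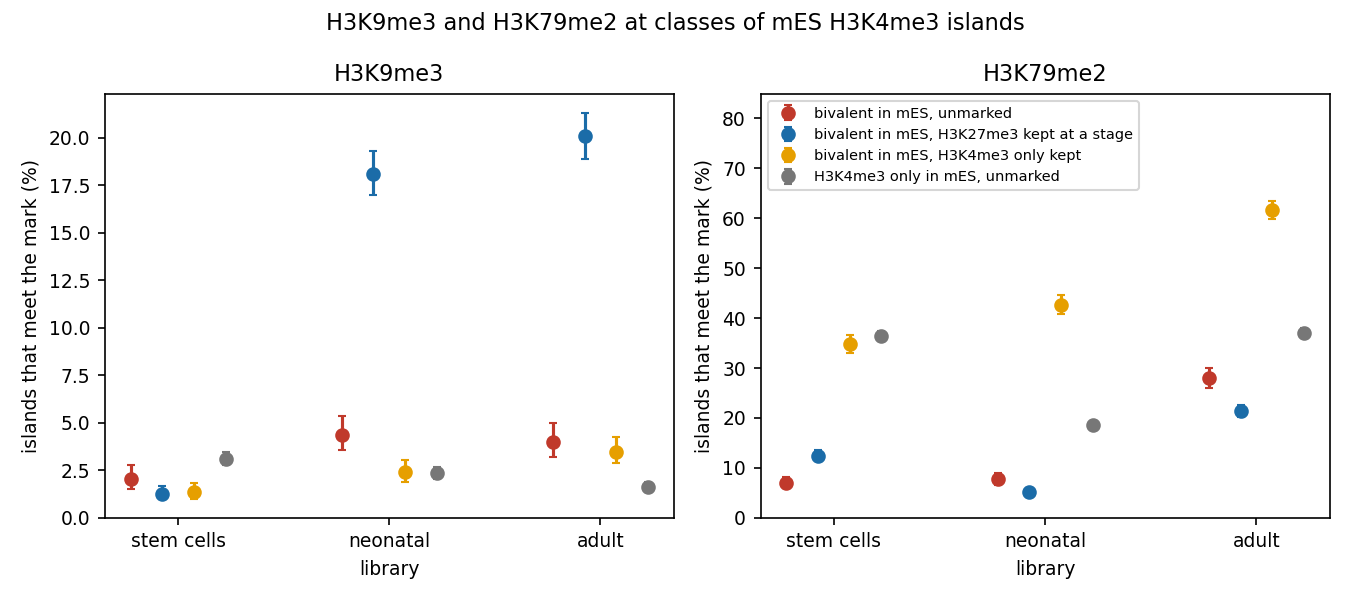
Percent of islands that met an H3K9me3 (left) or H3K79me2 (right) island in stem cells, neonatal and adult cardiomyocytes, for 4 classes of mES H3K4me3 islands; points are shares in 1 library each and bars 95% Wilson intervals. Unmarked bivalent islands (red) reached 27.9% with adult H3K79me2 and stayed at 4.01 to 4.37% with cardiomyocyte H3K9me3, against 18.1 to 20.1% where H3K27me3 was kept.

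By stage, 415 unmarked islands (21.3%, 19.6 to 23.2) met H3K79me2 in adult cells only, 128 (6.58%) at both stages and 22 (1.13%) in neonatal cells only, while 1379 (70.9%) met none. At marked bivalent islands adult-only H3K79me2 was about as frequent, at 20.6%, whereas H3K79me2 at both stages was found at 16.5%. H3K79me2 in stem cells went with H3K79me2 later. Among the 135 unmarked islands with it in stem cells, 34.8% (27.3 to 43.2) met it in neonatal and 64.4% (56.1 to 72.0) in adult cells. Among the other 1809 the shares were 5.69% (4.72 to 6.86) and 25.2% (23.3 to 27.3). Marked bivalent islands had the same pattern, with 52.6% and 70.5% where stem cells had it and 10.9% and 28.1% elsewhere. Width was not held equal. From the narrowest to the widest quartile of members, H3K79me2 went from 1.77% to 16.6% in stem cells and from 20.4% to 43.9% in adults. Stem cell H3K79me2 with none at either stage was found at 44 islands.

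The comparison with marked islands changed with island score and width. Within the quartiles of the unmarked islands' own scores, adult H3K79me2 was met by 20.1%, 22.3%, 29.9% and 39.0% of unmarked islands, against 14.6%, 21.1%, 22.1% and 43.5% of marked bivalent islands in the same score ranges. The highest quartile runs to a score of 736 in unmarked and 1109 in marked islands. The mean difference over the quartiles was 2.51 percentage points higher at unmarked islands, and within quartiles of width it was 0.262 points higher. By width quartile the adult shares were 20.4%, 19.5%, 27.1% and 43.9% at unmarked and 15.2%, 21.02%, 26.5% and 46.8% at marked islands. The unmarked islands were thus the lower class in the highest score quartile and in 2 of the 4 width quartiles, and no order held throughout. In stem cells and neonatal cells the mean difference within score quartiles was -2.72 and -3.43 points. The means rest on the highest quartile, where the score ranges differ, with 14.2% of unmarked against 27.9% of marked islands in stem cells and 11.99% against 24.7% in neonates. Unmarked islands were the higher class in the second and the third quartile in stem cells (3.69% against 2.72% and 7.33% against 3.78%) and in the third in neonates (8.96% against 7.36%).

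**Figure D4:**
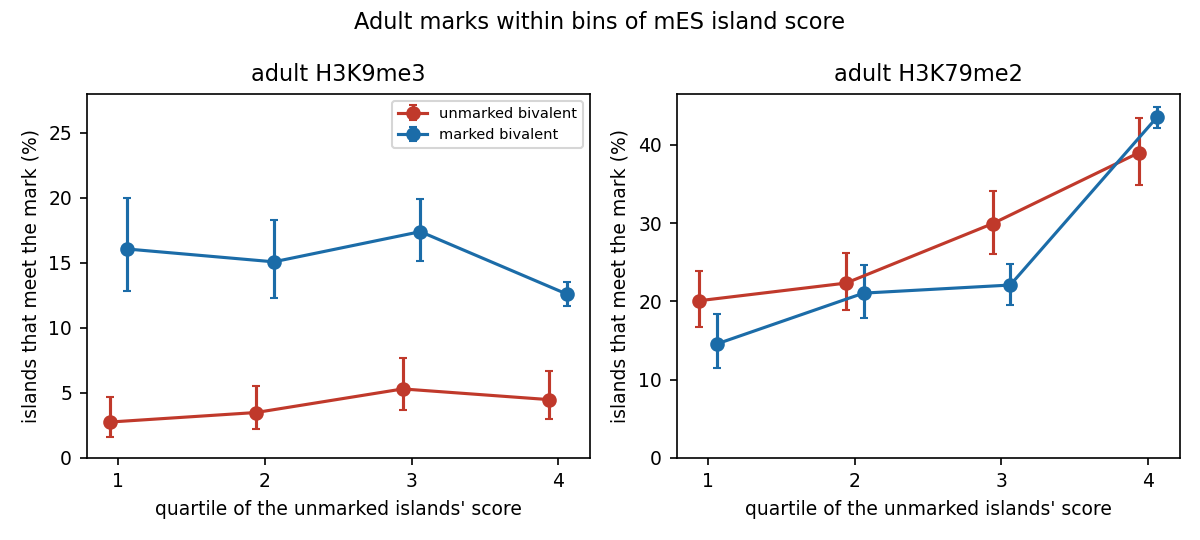
Percent of unmarked (red) and marked (blue) mES bivalent islands that met adult H3K9me3 (left) or adult H3K79me2 (right) within quartiles of the unmarked islands' score, lowest first; bars are 95% Wilson intervals. For H3K9me3 the red points lay between 2.75% and 5.30% and below the blue in each quartile, while for H3K79me2 the classes crossed.

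The H3K79me2 islands that met unmarked islands were long. In neonatal cells there were 152 with a median width of 7000 bp, against 4400 bp over all neonatal H3K79me2 islands, and in adult cells 552 with a median of 4800 bp, against 3200 bp. They covered the whole of 89 of the 150 neonatal and 306 of the 543 adult members they met. A longer island has more chances to meet a member, which by itself raises these medians. Of the 552 adult H3K79me2 islands, 129 (23.4%, 20.03 to 27.1) met an adult H3K4me3 island elsewhere along their length, beside 21.1% of all adult H3K79me2 islands. Of the 152 neonatal ones, 54 (35.5%, 28.4 to 43.4) met a neonatal H3K4me3 island, against 41.6% of all. These sets are unlike, since the islands at members were longer and their member part could hold no H3K4me3 island.

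The longest lay at chr8:11278600-11280199, a member of 1600 bp inside a neonatal H3K79me2 island of 95400 bp, which also met an adult H3K79me2 island over its whole length. The member chr19:53826000-53827599 (1600 bp) lay inside a neonatal island of 75200 bp and met none in the adult. In contrast, chr6:31075400-31076999 (1600 bp) lay inside an adult island of 72200 bp and met none in the neonate. None of these 3 had H3K79me2 in stem cells. Members inside long H3K79me2 stretches therefore met the mark at a single stage or at both. Whether the stretches met H3K79me2 of the other stage beyond the member was not counted.

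H3K9me3 was rare at the unmarked islands in all 3 cell types. It was met by 40 islands in stem cells (2.06%, 1.51 to 2.79), 85 in neonatal (4.37%, 3.55 to 5.37) and 78 in adult cells (4.01%, 3.23 to 4.98). The shares over all stem cell H3K4me3 islands were 2.26%, 4.89% and 5.05%, so the unmarked islands stood close to the whole list. In stem cells the marked bivalent islands were the lower class, at 1.29%, a difference (unmarked minus marked) of 0.764 percentage points (0.147 to 1.53). Marked bivalent islands met it more often in cardiomyocytes, at 12.03% in neonatal and 13.7% in adult cells, with differences (unmarked minus marked) of -7.66 and -9.64 percentage points. The higher share lay in islands with H3K27me3 at a stage, at 18.1% and 20.1%, while those with H3K4me3 only stood at 2.41% and 3.49%. Within score quartiles the mean adult difference was -11.2 points.

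H3K9me3 was met in neonatal cells only at 72 members, in adult cells only at 65 and at both stages at 13 (0.669%). At marked bivalent islands the numbers were 557, 670 and 280, so there too fewer islands met it at both stages than at either stage alone. Of the 40 islands with stem cell H3K9me3, 8 met it in neonatal and 2 in adult cells, against 36 and 29 of the 90 such marked islands. The H3K9me3 islands at members had a median width of 2800 bp in the neonate and 2400 bp in the adult, against 2600 and 2200 bp over all H3K9me3 islands. Taking H3K9me3 and H3K79me2 as 1 class, 1273 unmarked islands (65.5%, 63.3 to 67.6) met neither H3K9me3 nor H3K79me2 at either stage, so that no SICER island of the 4 marks was met there in cardiomyocytes. Among marked bivalent islands 43.2% met neither of those 2 marks.

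A pair of members stood out for H3K9me3. At chr2:27351400-27352399 (1000 bp, score 23) H3K9me3 covered the whole island in stem cells and neonatal cells and none of it in adult cells, and the neonatal H3K9me3 island spanned 8000 bp with a score of 699, the highest among members. In the authors' deposited table of the stages, the region chr2:27350400-27358399 had 400 neonatal reads and 1 adult read, the lowest value the tables hold. Set against a floor of 3 adult reads, the normalised ratio of neonatal to adult was 121. These are reads left after control subtraction, and the ratio leaves out the error of that step. At chr5:105356800-105357599 (800 bp, score 99) the neonatal H3K9me3 island spanned 6000 bp with a score of 331. The authors' deposited table gave chr5:105351800-105357799 211 neonatal reads and 1 adult read, a ratio of 64.0 on the same floor. Stem cell H3K9me3 at both regions was also above the adult level, by 6.24 and 7.26 on the log2 scale (mES minus CMa) in the authors' deposited table. Among the other widest H3K9me3 islands at members, those at chr4:136326400-136327999, chr4:118157400-118159999 and chr16:90011200-90012399 were adult islands of 5600 to 6600 bp with scores of 65 to 79, and no neonatal H3K9me3 island met these members. The region of the last, chr16:90011000-90016599, still had 22 neonatal beside 59 adult reads in the authors' deposited table of the stages.

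The unmarked islands were scattered, at varied gaps from marked places. The median gap to the nearest H3K4me3 or H3K27me3 island of a stage was 6000 bp (quartiles 2000 and 16800 bp, longest 983000 bp). The stage lists of these marks held 13303 to 23580 islands each, and the gap was not set against a background. The gap was at most 1000 bp for 315 members (16.2%) and over 100000 bp for 29 (1.49%). Members touching a stage island numbered 66, among them chr1:75463600-75466199, chr1:75478800-75479799 and chr1:93262400-93263999, which lay just inside the rule with a gap of 0 bp. Just outside it lay chr1:43009600-43010799, chr1:88995000-88995799 and chr1:133867000-133867999, each sharing a single window of 200 bp with an adult H3K27me3 island. In all, 97 marked islands shared 200 bp or less with stage islands.

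Adult H3K79me2 was met by 25.8% of the 66 touching members, 32.9% of the 249 members 1 to 1000 bp from a stage island, 30.7% of the 908 at over 1000 and up to 10000 bp, 23.6% of the 692 at over 10000 and up to 100000 bp, and 6.90% of the 29 farther away. H3K9me3 at either stage was met by 9.09%, 13.3%, 7.82%, 5.49% and 6.90% of these classes. Neither share followed the gap throughout, and the touching and the farthest class rest on few islands. Within 5000 bp of another member there were 145 (7.46%), and the largest cluster held 3 members at chr9:56737600-56746199. By chromosome the unmarked share of bivalent islands ran from 16.7% (13.9 to 19.8) on chromosome 11 to 29.4% (25.8 to 33.3) on chromosome 8.

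The authors' deposited tables compare stem cells with each stage and hold no region with a false discovery rate of 0.01 or more, a rate that compares the reads of 1 library with those of 1 other. Of the 1944 unmarked islands, 425 (21.9%) overlapped a region of at least 1 of the 12 deposited tables, against 78.3% of marked bivalent islands, and 1519 were in none. The listed regions were much wider than the islands, with medians of 9100 to 19200 bp in the tables against stem cells, so a member often filled a small part. Values are therefore also given for the listed regions that held no H3K4me3 or H3K27me3 island of either stage. The tables with stem cells share the stem cell libraries. Stem cell values were not read here, so regions at the lowest stem cell value were neither counted nor left out. The size of a difference on the cardiomyocyte side depends on that value.

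For H3K4me3 and H3K27me3 the tables describe marks that chose the members, and nothing is read from the counts. In the authors' deposited neonatal H3K4me3 table, 232 members (11.9%) were higher in stem cells, against 24.9% of all stem cell H3K4me3 islands. There 79 (4.06%) were higher in neonates, against 17% of all. Against the adult, the authors' deposited table had 174 higher in stem cells (8.95%, against 26.7% of all) and 119 higher in adults (6.12%, against 15%). For H3K27me3 the authors' deposited table had 261 members higher in stem cells than neonates (13.4%, against 17%) and 29 lower (1.49%, against 10.5%). Against the adult it was 244 higher in stem cells (12.6%, against 22.4%) and 48 lower (2.47%, against 14.5%) in the authors' deposited table. In regions without stage islands, the median log2 difference (stem cells minus stage) in the authors' deposited tables was 2.71 against neonatal and 1.63 against adult H3K4me3. For H3K27me3 it was 3.01 and 2.47 in those regions of the authors' deposited tables, where 70 of the 80 neonatal regions stood at the floor of 1 read. Over all listed regions at members, leaving out those at the floor turned the neonatal H3K27me3 median of the authors' deposited table from 3.54 to -0.49 (55 regions, interval -1.18 to 0.98).

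H3K79me2 in the tables lay towards the cardiomyocytes. In the authors' deposited table with neonates, 156 members (8.02%) were higher in neonates, against 14% of all stem cell H3K4me3 islands, and 46 (2.37%) higher in stem cells, against 24.3%. In the authors' deposited table with adults, 275 members (14.1%) were higher in adults, against 24.4% of all islands, and 38 (1.95%) higher in stem cells, against 25.1%. Members were thus listed less often than the whole list in both directions, and the gap to the whole list was wider on the stem cell side. The median log2 difference (stem cells minus stage) over the regions at members in the authors' deposited tables was -4.13 with neonates and -4.55 with adults, against 0.43 and -1.23 over all regions. How many of the regions at members stood at the lowest stem cell value was not counted. In regions without stage islands the authors' deposited tables gave -3.26 over 54 regions and -3.61 over 103 regions. At marked bivalent islands the medians of the authors' deposited tables were -3.11 and -3.82, so a cardiomyocyte side was common to both classes.

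Single members went the other way. At chr7:36320800-36323399 (2600 bp), whose table region held no stage island, H3K79me2 covered 1800 bp in stem cells and none at either stage. The authors' deposited tables gave a log2 difference of 6.36 against neonates, with 1 neonatal read, and 6.34 against adults, with 2 adult reads. At chr9:118313200-118316599 (3400 bp) the authors' deposited table gave 6.16 against adults, with 1 adult read. The largest cardiomyocyte excess lay at chr1:74013200-74014999, where a region of 129400 bp had 2646 neonatal and 2614 adult H3K79me2 reads. The authors' deposited tables put its log2 difference at -11.31 against neonates and -10.32 against adults. This member fills little of that region.

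H3K9me3 in the tables was listed in both directions at members. In the authors' deposited table with neonates, 121 members (6.22%) were higher in neonates, against 16.1% of all islands, and 96 (4.94%) higher in stem cells, against 17.1%. With adults the authors' deposited table had 112 (5.76%) higher in adults, against 15.1%, and 116 (5.97%) higher in stem cells, against 18.4%. The median log2 difference over regions at members in the authors' deposited tables was -0.80 with neonates and 0.52 with adults (intervals -0.98 to 0.50 and -1.01 to 1.18). Both intervals hold 0, and in regions without stage islands the adult value turned to -1.14. Without the regions at the floor, both medians of the authors' deposited tables lay on the cardiomyocyte side, at -0.98 (-1.21 to -0.80) and -1.11 (-1.32 to -0.71). Leaving these out removes regions low at the stage, and thus high in stem cells. At marked bivalent islands the authors' deposited tables gave -1.49 and -1.56, on the cardiomyocyte side. Among members without a stage island in the region, chr3:141831600-141832799 stood lowest, with -4.37 against neonates (23 reads) and -4.75 against adults (26 reads) in the authors' deposited tables. Next was chr17:17986800-17987799 with -4.02 against neonates (18 reads) in the authors' deposited table. Against adults, chr2:6020200-6023399, with 30 adult reads, and chr13:114081600-114084799, with 15 adult reads, both stood at -3.95 in the authors' deposited table.

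**Figure D5:**
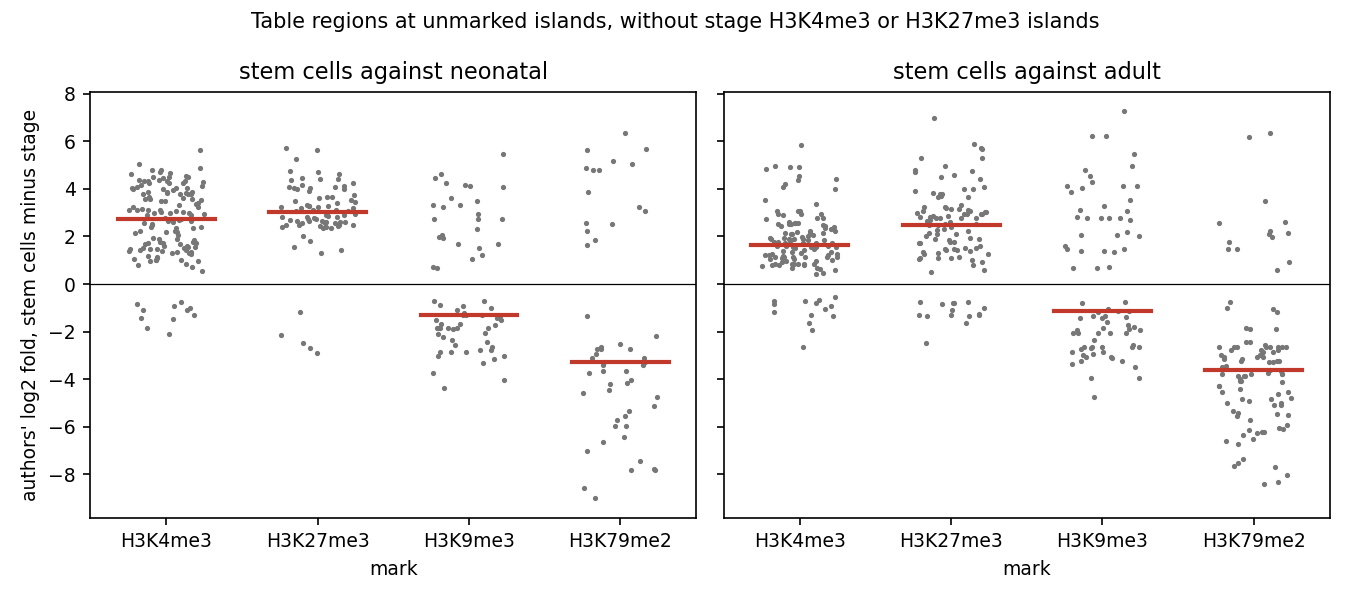
Log2 difference (stem cells minus stage) in the authors' deposited tables for listed regions at unmarked bivalent islands that held no stage H3K4me3 or H3K27me3 island, with neonatal (left) and adult (right) cells; each grey point is a region and red lines are medians. Medians for H3K79me2 lay at -3.26 and -3.61 and those for H3K27me3 at 3.01 and 2.47, with 70 of the 80 neonatal H3K27me3 regions at the floor of 1 read; regions past the authors' threshold only are listed, so values near 0 are missing.

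Between the stages, H3K79me2 at the members was more often higher in the adult. In the authors' deposited table of neonatal and adult cells, 204 members (10.5%) were higher in adults, against 24.8% of all stem cell H3K4me3 islands, and 86 (4.42%) higher in neonates, against 20.2%. Of marked bivalent islands 43.3% were higher in adults and 13.2% in neonates, so this lean was common to both classes. In regions at members without stage islands there were 69 higher in adults, with a median of 33 adult reads, and 57 of them stood at the floor of 1 read in neonates. Another 18 were higher in neonates, with a median of 45 reads. The largest adult value with the neonate at the floor was at chr7:139802000-139809199, with 159 adult reads, a normalised ratio of 26.5 against a floor of 3 reads. It held the member chr7:139802000-139802999. The region chr10:122237600-122245399, with the member chr10:122238000-122239999, had 142 adult reads and a ratio of 23.7 on that floor. In the other direction, chr2:153348400-153356924 had 48 neonatal and 14 adult reads, a normalised ratio of 6.85 (exact interval 3.72 to 13.5), and its member filled 63.3% of it. The ratios and the interval leave out the error of control subtraction. These 3 regions were picked after their values were seen.

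For H3K9me3, the authors' deposited table of the stages had 135 members higher in neonates (6.94%, against 17.9% of all islands) and 90 higher in adults (4.63%, against 14.4%). In its regions without stage islands, 49 were higher in neonates and 40 in adults, near an even split. For the marks that chose the members, 177 (9.10%) were higher in adults for H3K4me3, against 19% of all stem cell H3K4me3 islands. Another 60 (3.09%) were higher in neonates, against 16.3%, in the same authors' deposited table. For H3K27me3 the authors' deposited table had 148 higher in adults (7.61%, against 12.9% of all) and 20 higher in neonates (1.03%, against 5.86%). In regions without stage islands, 38 of the 53 higher in adults for H3K4me3 and 43 of the 46 for H3K27me3 stood at 1 neonatal read. Median adult reads there were 26 and 16.5, so some members without any island still held reads of either mark in their table region.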

How the data were processed

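Island scores, region scores and comparison tables were used as the authors deposited them. The submitters' processing notes name mm9, DiffBind 1.2.0, MACS 1.4.2, SICER 1.1 and Bowtie 0.12.8. Lists were called per library. The sources used here do not state what the SICER score measures. Stem cell reads were public data, and per the deposited description those of H3K4me3, H3K27me3 and H3K9me3 were lifted from mm8. The deposited tables hold log2 normalised reads left after control subtraction. Divided by the lowest value of their column, 100% of the stage values were whole at a tolerance of 0.01 and were taken as reads, with a floor of 1. The 8 stem cell value columns were not used, and input reads were not analysed here. Positions include the end base.

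Overlaps, Wilson 95% intervals, order-statistic intervals of medians and exact conditional binomial intervals of read ratios were computed with Python 3.11.15, pandas 2.3.3 and scipy 1.17.1 and checked on simulated islands and reads. Reads amplified by PCR are not independent molecules, and no read ratio or interval carries the error of the control subtraction. Named regions were the 8 widest members, the 6 with the highest scores, the 6 with the widest H3K9me3 and H3K79me2 islands, the 4 with the largest table differences each way, and 3 on each side of the rule, of which some are printed. The members and lists were chosen with earlier results of these data known. Alternatives covered the overlap, score, caller, width, chromosomes, merging, false discovery rate and floor.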

Additional observations from a re-analysis of the deposited data

How the results depend on the processing

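No paired analysis was possible because each group held 1 library. The number of unmarked islands moved from 1944 of 8901 bivalent islands to 245 of 4133 with the stem cell islands above the median score. It was 3138 of 8901 with stage islands above the median score, and 366 of 810 with MACS regions throughout. The unmarked share was thus lower in the first of these settings and higher in the others.
With stem cell islands above the median score, widths were 2000 bp (unmarked) and 2600 bp (marked). Shares with H3K9me3 were then 3.67% in stem cells and 6.94% in neonates, and shares with H3K79me2 12.2%, 14.7% and 42.4% in stem cells, neonates and adults. Differences to marked islands were 2.67 and -6.28 points for stem cell and neonatal H3K9me3 and -8.94 and -0.298 points for neonatal and adult H3K79me2. Table shares were 26.1% and 27.8% for H3K9me3 and 21.2% and 37.1% for H3K79me2 (neonatal and adult tables), with median H3K9me3 folds of -1.24 and -0.78, the latter reversed.

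With MACS regions of the marks, shares with H3K9me3 were 0.103%, 0.0514% and 0.0514% (stem cells, neonates, adults) and with H3K79me2 1.23%, 0.720% and 0.206%. Differences to marked islands were -0.0121 (reversed), -0.0779 and -0.0923 points for H3K9me3 and -6.27, -3.68 and -0.470 for H3K79me2. Within width quartiles the differences were -6.08 points for neonatal H3K9me3 and -4.67, -5.37 and 0.262 (reversed) for H3K79me2. Within score quartiles, chosen after seeing the data, they were -11.2 for adult H3K9me3 and -2.72, -3.43 and 2.51 (reversed) for H3K79me2.

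An overlap of at least 25% gave -12.5 points for stem cell H3K79me2, H3K9me3 table shares of 12.9% and 13.2%, and a reversed adult H3K9me3 fold of -0.77. Counting stage islands within 1000 bp gave adult table shares of 10.3% (H3K9me3) and 14.2% (H3K79me2). Merging within 5000 bp gave a marked width of 2400 bp and H3K79me2 differences of -15.9, -13.8 and -11.5 points. A false discovery rate under 0.001 gave H3K9me3 table shares of 9.21% and 9.26% and an adult fold of 1.29. Without regions at the floor these were 9.57%, 9.77% and -1.11 (reversed), and the neonatal H3K27me3 fold reversed to -0.49, since most of its regions stood at the floor. In regions without stage islands, chosen after seeing the data, table shares were 3.76% and 4.32% (H3K9me3) and 2.83% and 5.40% (H3K79me2), with folds of -1.30 and -1.14 (reversed) and -3.26 and -3.61. Other causes were not tested. Another 81 values of these results stayed within their counting interval or, for the number of islands, within 1.5 times. Depth limits absence: an island not called does not show that a mark is absent.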
